A study of Homo sapiens with 4 samples.

Results

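The HOX genes are the homeobox genes of the HOXA, HOXB, HOXC and HOXD clusters. They were taken as every gene whose symbol is HOXA, HOXB, HOXC or HOXD followed by digits only, so antisense transcripts of the clusters were left out, and each gene was read by its brightest probe set that is assigned to 1 gene. The rule gave 28 of 19775 genes: 10 of HOXB, 9 of HOXC, 8 of HOXD and 1 of HOXA (HOXA2). These 28 genes had 44 probe sets, and 13 genes had more than 1. The rule used names and no difference between conditions.

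HOX genes encode homeodomain transcription factors that give cells of the trunk, hindbrain and limbs their position along the body axis. Within a cluster they lie in the order in which they act, from low paralogue numbers at the anterior side to high numbers at the posterior side. Polycomb complexes keep the clusters silent, Trithorax and MLL complexes keep them active, retinoic acid can switch on the anterior genes, and PBX and MEIS proteins bind DNA together with HOX proteins. The adult forebrain uses few of them, while many glioblastoma cells express some.

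The cells were U87TR-Da, made from the established glioblastoma line U87MG so that doxycycline induces DACH1, a nuclear protein known mainly as a transcriptional repressor. There were 4 conditions with 1 array each: DACH1-silenced and DACH1-induced cells in a medium labelled as DMEM with 10% FBS, and both states in a medium labelled as serum-free Neurobasal that holds bFGF, EGF and the supplements N-2 and B-27. The treatment text is the same for silenced and induced samples (doxycycline at 1 µg/mL, 72 h), so how the silenced state was held is not given in the labels. Neither the promoter that drives DACH1 nor whether the line is 1 clone is given in the sources used here. Without replicates, precision is limited by how few arrays there are.

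The values are MAS5 signals, a brightness per probe set on a linear scale. A floor of 10.9, below which 40% of signals lay, replaced lower values before log2, and the median over the whole data set was 17.2. The arrays' own medians ran from 15.7 to 19.3, highest on the silenced array labelled serum-free. The brightest probe set of DACH1 checks the labels: it read 126.0 in silenced and 4431 in induced cells labelled serum, and 32.5 and 875.1 in those labelled serum-free. Its other probe sets did not show this rise. They read 23.1 and 24.7, then 12.1 and 2.9, and, under the floor on every array, 8.3 and 4.0, then 0.4 and 6.7. Why they differ was not tested. Vimentin, CD44 and fibronectin were abundant on every array (1306.4 or more), whereas GFAP, S100B and SOX2, also on that list of 8 glioma and mesenchymal markers, lay under the floor on all 4. The other members were NES, from 19.6 to 35.8, and the glial progenitor gene OLIG2. OLIG2 read 58.4 and 79.9 in cells labelled serum and 12.2 and 12.3 in those labelled serum-free (limma adjusted p = 0.017). It reached 17.2, the mark for entering that fit, only on the arrays labelled serum. Its call is thus a description, not support for a difference. Of 12 marker genes of other cell types only SNAP25 reached 50, and the summed signal of the 12 was 295.4 (silenced) and 190.0 (induced) with the serum label, and 532.4 and 454.7 with the serum-free label. SNAP25 itself was the largest part of that sum on every array (160.2 and 68.6, then 370.3 and 352.5). It was most of the sum except on the induced array labelled serum. This neuronal gene was 3.45-fold higher with the serum-free label (limma adjusted p = 0.0349), and its part in the HOX differences between the media was not tested. In bulk RNA of this kind, fewer cells that express a gene and less RNA per cell cannot be told apart.

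The start regions of 5 transcripts are printed here because their genes carry the results below: HOXC5 and HOXD13 were the HOX genes at least 2-fold different between the media in both DACH1 states, HOXD4 and HOXD8 were measured on every array, and HOXD-AS2 is the antisense transcript between the latter pair. RefSeq windows of the 250 bases before the transcript start were matched for 11 of the 28 HOX genes. They lie, in GRCh38.p14, at chr12:54016638-54016887 (HOXC5, plus strand), chr2:176092471-176092720 (HOXD13, plus strand), chr2:176129455-176129704 (HOXD8, plus strand), chr2:176151300-176151549 (HOXD4, plus strand) and chr2:176137099-176137348 (HOXD-AS2, minus strand). Capitals mark TAAT, the core letters that homeodomains bind, on either strand.
HOXC5: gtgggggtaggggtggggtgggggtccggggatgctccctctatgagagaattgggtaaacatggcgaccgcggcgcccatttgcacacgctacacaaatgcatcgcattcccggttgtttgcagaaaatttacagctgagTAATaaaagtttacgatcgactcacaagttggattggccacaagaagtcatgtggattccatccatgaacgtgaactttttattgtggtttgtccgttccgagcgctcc
HOXD13: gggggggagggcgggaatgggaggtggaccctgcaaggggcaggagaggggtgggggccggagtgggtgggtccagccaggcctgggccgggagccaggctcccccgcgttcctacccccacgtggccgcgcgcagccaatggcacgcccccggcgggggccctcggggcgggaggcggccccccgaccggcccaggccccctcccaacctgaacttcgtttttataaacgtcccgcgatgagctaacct
HOXD8: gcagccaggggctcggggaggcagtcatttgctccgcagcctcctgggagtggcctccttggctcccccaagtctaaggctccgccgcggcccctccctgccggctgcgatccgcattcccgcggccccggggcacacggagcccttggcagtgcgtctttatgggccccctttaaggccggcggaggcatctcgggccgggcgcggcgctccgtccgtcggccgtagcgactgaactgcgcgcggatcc
HOXD4: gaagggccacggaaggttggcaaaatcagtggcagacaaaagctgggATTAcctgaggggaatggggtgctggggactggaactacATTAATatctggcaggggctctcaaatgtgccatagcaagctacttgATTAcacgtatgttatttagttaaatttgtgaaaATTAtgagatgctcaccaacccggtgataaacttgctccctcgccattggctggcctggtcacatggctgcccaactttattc
HOXD-AS2: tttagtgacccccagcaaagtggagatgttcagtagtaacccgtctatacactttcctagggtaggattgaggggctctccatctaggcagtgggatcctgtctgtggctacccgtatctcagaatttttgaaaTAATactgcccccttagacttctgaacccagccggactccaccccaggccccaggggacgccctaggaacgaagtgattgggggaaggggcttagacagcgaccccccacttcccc

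TAAT was found 5 times in the HOXD4 window, counting overlapping matches, once each in those of HOXC5 and HOXD-AS2, and 0 times in those of HOXD8 and HOXD13. It lay in 9 of the 11 matched HOX windows and in 47.4% of 35116 windows of the same length. TGATNNAT, the composite PBX and HOX letters, lay in 3 of the 11 (6.47% of all windows), TGACAG, which MEIS binds, in 1 (13%), and AGGTCA, the nuclear receptor half-site, in 0 (12.1%), all on either strand. GC content was 74.0% for HOXD13 and 72.4% for HOXD8 against a median of 58.0%, and 47.6% for HOXD4. The ratio of observed to expected CpG, where low values mean few CpG for the base composition, was 0.29 for HOXD4 and 0.32 for HOXD-AS2, against 0.62 to 0.89 for the other 3 and a median of 0.56. HOXC4 has the same RefSeq window as HOXC5, so that stretch and its TAAT enter the count of 9 of 11 once for each gene. These matches describe letters only, and no binding was measured.

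Few HOX genes gave a clear signal. A signal of 50 or more on at least 1 array was reached by 7 of 28 HOX genes (25%), against 49.9% of all genes, and 100 or more by 4 (14.3% against 40.9%). The median of all signals was reached on every array by 9 HOX genes (32.1% against 52.2%). The floor was reached on at least 1 array by 23 (82.1% against 80.1%), and the other 5 lay under it on all 4 arrays. At the floor HOX genes were thus near the share over all genes. Signals of different probe sets do not compare as amounts of RNA, so genes were set only against these marks. By position in the cluster, 50 was reached by 2 of 5 genes of paralogue groups 1 to 3, by 5 of 11 of groups 4 to 8 and by 0 of 12 of groups 9 to 13, whose highest signal was 36.8. The genes that reached 50 thus all lay in the anterior and central parts of the HOXB, HOXC and HOXD clusters. HOXA2 was the only HOXA gene read, so the central and posterior genes of that cluster are not covered.

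**Figure D1:**
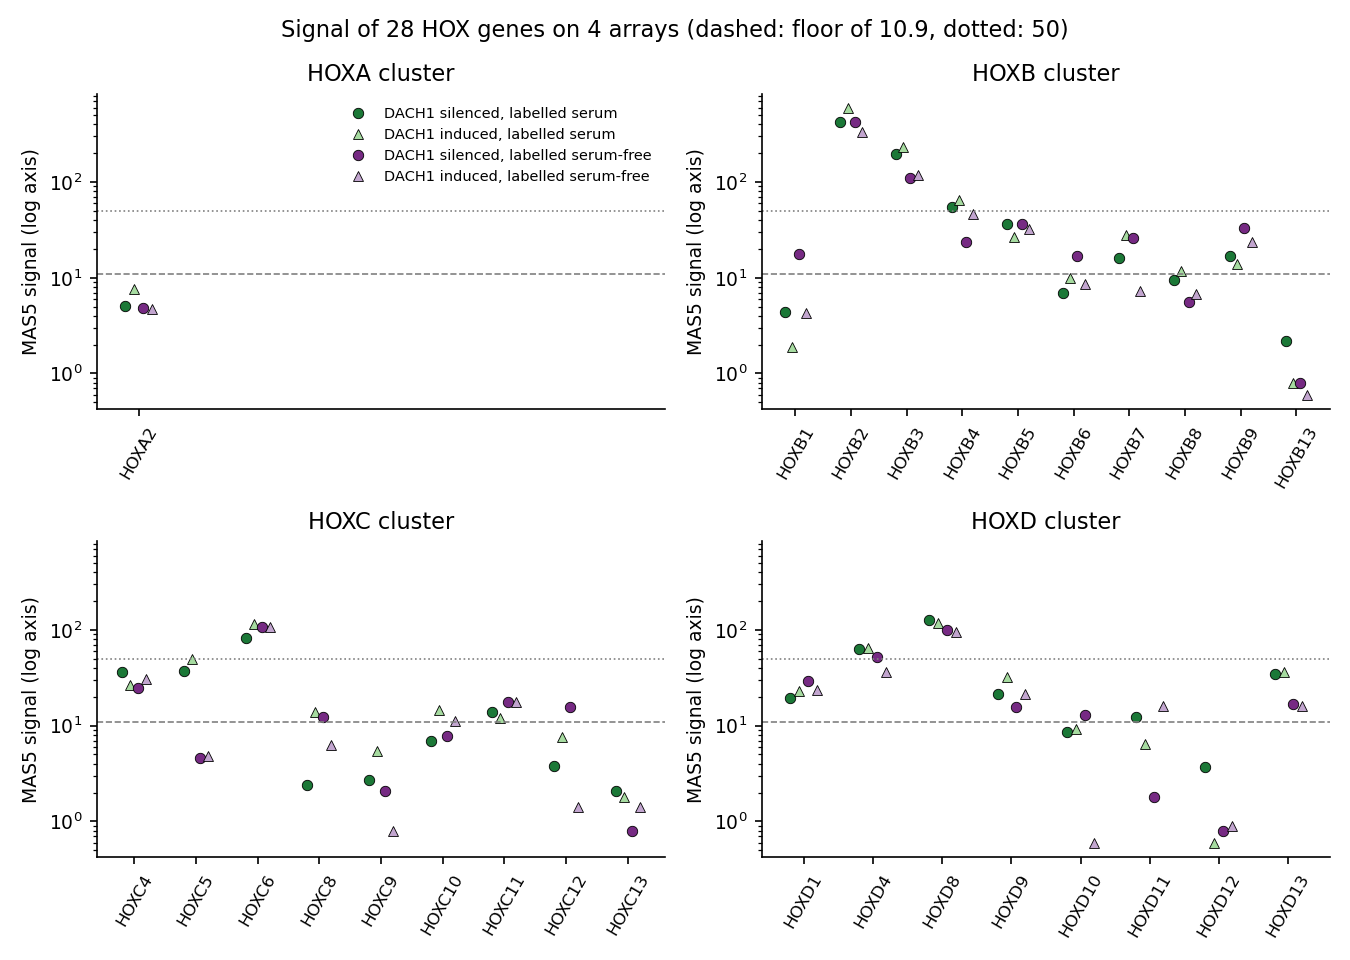
Signals (log axis) of the 28 HOX genes on the 4 arrays, 1 panel per cluster, genes ordered by paralogue number; circles are DACH1-silenced and triangles DACH1-induced cells, green labelled serum and purple labelled serum-free. Points on or above the dotted line at 50 belong to 7 genes with paralogue numbers from 2 to 8, and HOXC5 drops from above to below the dashed floor of 10.9 between the media.

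In the HOXB cluster the measured genes were the anterior ones. HOXB2, which patterns the hindbrain, read 422.0 in silenced and 596.9 in induced cells labelled serum, and 429.2 and 331.2 in those labelled serum-free. Its induced cells were the highest array in one medium and the lowest in the other. HOXB3, also a hindbrain gene, read 198.4 and 233.7 in cells labelled serum and 109.4 and 118.9 in those labelled serum-free, so the media did not overlap. HOXB4, known for its part in expanding blood stem cells, read 54.3 and 65.3 against 23.9 and 45.9, again without overlap, although the gap between 45.9 and 54.3 was narrow. The posterior HOXB9 stayed under 50 but was lower in cells labelled serum (16.9 and 14.0) than in those labelled serum-free (33.0 and 23.8). HOXB5 read 36.2, 26.9, 36.8 and 32.0, taking the arrays in the order silenced and induced labelled serum, then silenced and induced labelled serum-free.

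In the HOXC cluster HOXC6, a gene of the thoracic region, read 82.1 and 114.5 in cells labelled serum and 106.5 and 107.4 in those labelled serum-free; the single low array was the silenced one labelled serum. HOXC5, its neighbour, read 37.4 and 50 in cells labelled serum and 4.6 and 4.8, under the floor, in those labelled serum-free. HOXC4, whose RefSeq window is the one printed for HOXC5, read 36.6 and 26.9 against 24.8 and 30.9, so its media overlapped where those of HOXC5 stood apart.

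In the HOXD cluster HOXD8 read 126.9 and 118.3 in cells labelled serum and 99.0 and 95.8 in those labelled serum-free, with little difference between DACH1 states in either medium. HOXD4, a gene of the hindbrain and neck, read 62.6 and 65.0 against 51.9 and 36.5, with the induced array labelled serum-free the lowest. Its other probe set was dimmer and overlapped between the media (19.9 and 32.8 against 21.5 and 5.0). HOXD13, best known from the digits of the limb, read 34.6 and 36.8 against 17 and 16.0. By the brightest probe set the media did not overlap for any of these 3 genes. The share of all genes whose media do not overlap was not counted. In the limma fit 45.7% of 12103 genes had an unadjusted p under 0.05 for medium. Lack of overlap, here or above, is thus not read as particular to HOX genes. The 21 HOX genes that never reached 50 ranged from 0.6 to 36.8.

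The first comparison set the media against each other within each DACH1 state. The HOX genes at least 2-fold different were all lower in cells labelled serum-free: HOXC5 was lower by at least 3.43-fold in silenced and by at least 4.59-fold in induced cells, and HOXD13 was 2.04-fold and 2.3-fold lower. HOXB4 was 2.27-fold lower in silenced cells and 1.42-fold lower in induced cells. HOXB7 was at least 2.6-fold lower in induced cells (28.3 and 7.3) but 1.64-fold higher in silenced cells (16.0 and 26.3), all low signals. Its other probe sets read 21.5 and 6.2, and 11.6 and 6.7, in induced cells, and lay under the floor on both silenced arrays. HOXB3 stayed short of 2-fold lower in both, with log2 differences of -0.86 and -0.97, and HOXB9 short of 2-fold higher, at 0.97 and 0.77.

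Over differences of any size, 8 HOX genes were higher and 8 lower in silenced cells, and 5 higher and 10 lower in induced cells. In silenced cells 3 of 16 HOX genes compared were at least 2-fold lower (18.8%) and 0 higher, where 12.2% of 12906 genes were lower and 15.3% higher. In induced cells 3 of 15 were lower (20%) and 0 higher, where 10.1% of 12371 genes were lower and 14% higher. A gene was compared where at least 1 array of the pair reached 17.2, and with 1 array per condition these counts have no test. Background shares of that size amount to between 1 and 2 of these HOX genes in each state, so the lower counts differ from the background by fewer than 2 genes. For the higher counts the background shares amount to between 2 and 3 genes, where 0 were seen. The median log2 difference of the HOX genes was -0.12 in silenced and -0.51 in induced cells, against 0.06 and 0.01 over all genes. Of 15 HOX genes compared in both states, 7 were lower in both (HOXB3, HOXB4, HOXC5, HOXD4, HOXD8, HOXD9 and HOXD13), 4 were higher in both (HOXB5, HOXB9, HOXC11 and HOXD1) and 4 changed sign; over all genes 39.3% were lower and 41.4% higher in both. All 4 of the HOXD genes numbered 4 or more that were compared, from HOXD4 to HOXD13, were among the 7, while HOXD1 was not. With the mean of its probe sets HOXD4 differed by -0.08 in silenced and by -1.21 in induced cells.

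**Figure D2:**
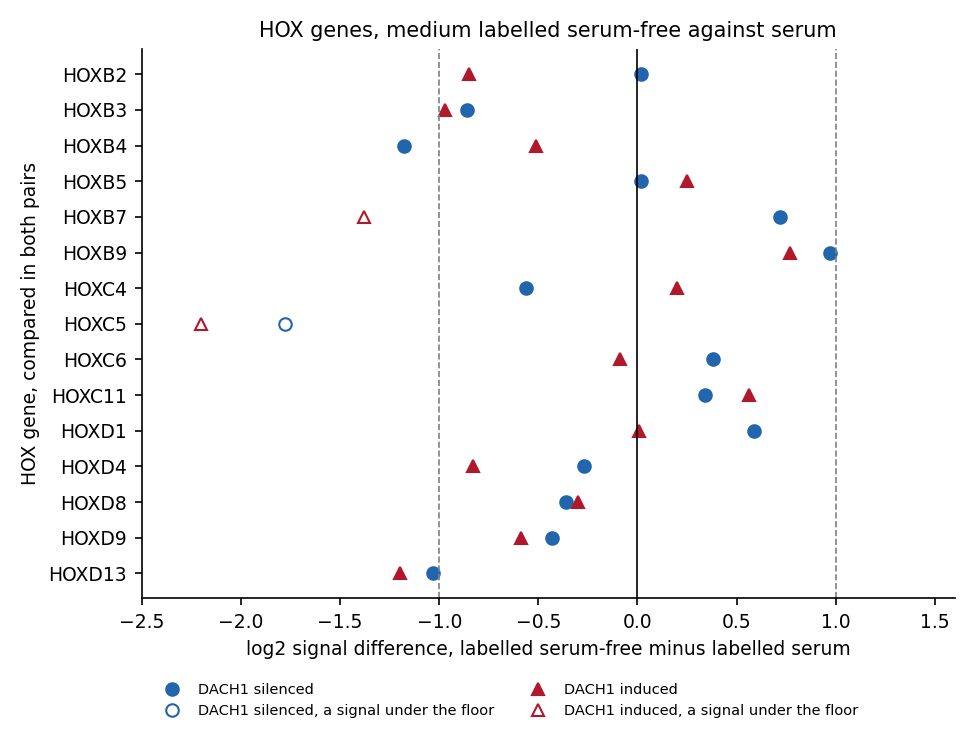
Log2 signal difference between cells labelled serum-free and labelled serum for the 15 HOX genes compared in both DACH1 states; blue circles are silenced and red triangles induced cells, open symbols have a signal under the floor and are bounds, and dashed lines mark 2-fold. HOXC5 and HOXD13 lie beyond 2-fold lower in both states, and no HOX gene lies beyond 2-fold higher.

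A limma fit of both factors over all 4 arrays gave the only test. Adjusted p-values run over 12103 genes. A gene's own error, with 1 residual degree of freedom, is the interaction of both factors. The eBayes step of limma pulls it toward a value pooled over the genes tested. HOXB3, HOXD8 and HOXD13 thus share a standard error (SE) of 0.18, although their interactions were -0.12, 0.05 and -0.18. Spread between repeated cultures does not enter this error, because nothing in the labels says that the 4 arrays are such cultures. Of 15 HOX genes tested, 3 fell in cells labelled serum-free: HOXC5 (log2 -1.99, SE 0.21, limma adjusted p = 0.0188, a value set by the floor), HOXD13 (log2 -1.11, SE 0.18, limma adjusted p = 0.0286) and HOXB3 (log2 -0.92, SE 0.18, limma adjusted p = 0.0358). HOXB9 alone rose (log2 0.87, SE 0.18, limma adjusted p = 0.0414). A gene entered the fit where 2 of the 4 arrays reached 17.2: HOXB3 did so on every array, but HOXC5 and HOXD13 did so only on the arrays labelled serum, and HOXB9 only on those labelled serum-free. The filter thus admitted these 3 through the medium in which they are high, and their calls are a description, not support for a difference. Over all genes 12.7% fell and 15.4% rose, and 45.7% had an unadjusted p under 0.05, so calls for medium were frequent everywhere. HOXB4 (log2 -0.85, SE 0.25) had a limma adjusted p of 0.0732, and of 0.0468 where every array had to reach the median, while those of HOXD4, HOXD8, HOXB2 and HOXC6 ran from 0.143 to 0.645. The median over the 15 that passed the filter, of 28, was -0.33, against 0.02 over all genes tested.

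These calls rest on few probes. The other probe set of HOXB3 was dim and went the other way (15.0 and 12.1 against 19.3 and 19.1), and with the mean of both the difference was -0.20 (limma adjusted p = 0.359); without a floor HOXB3 had a limma adjusted p of 0.0531. The other probe set of HOXB9 also went the other way (12.6 and 18.5 against 11.3 and 13.7), and HOXB9 passed the threshold under 0 of 6 alternative settings (limma adjusted p from 0.0592 to 0.244). HOXD13 had 3 probe sets: the next read 15.7 and 24.6 against 10.5 and 14.4, the same direction, and the dimmest 13 and 9.3 against 6.4 and 8.3. With their mean HOXD13 kept its call (log2 -0.63, limma adjusted p = 0.0481). HOXC5 and HOXD13 leave the fit where every array has to reach the median, which calls HOXB3 and HOXB4, and where the floor is 50, which calls HOXB3. Among the other 7 alternatives each passed under 6. The exception was the fit without the filter on low signals, in which 0 of 19775 genes passed. In that limma fit 4531 genes had an unadjusted p under 0.05. The lack of calls without the filter limits every call for medium given here, above or below.

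The label of the medium was checked with 12 tested genes, 8 of which respond to serum, TGF-beta or BMP and 4 of which make or control cholesterol. The contractile genes CNN1 (33.2 and 39.4 against 874.0 and 606.7) and TAGLN, ACTA2, the matrix gene THBS1 and the BMP targets ID1 and ID3 rose in cells labelled serum-free in the limma fit, 6 of those 12, and 0 fell. Over all genes tested 15.4% rose and 12.7% fell. The cholesterol genes HMGCS1, SQLE, INSIG1 and IDI1, which cells without outside lipid tend to raise, had medium differences of -0.98, 0.06, -0.59 and -0.83, none of which passed. For this reason the media are named as labelled here; whether these genes and the HOX differences share a source was not tested.

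The second comparison asked what DACH1 induction did to HOX genes. No HOX gene passed the test. In cells labelled serum 0 of 13 HOX genes compared were at least 2-fold higher or lower, with 2.91% of 12190 genes higher and 4.77% lower. In cells labelled serum-free 1 of 14 was lower, HOXB7 (26.3 and 7.3, at least 2.41-fold), and 0 were higher, with 2.72% of 12659 genes lower and 1.02% higher. The other probe sets of HOXB7 did not show this fall. They read 2.0 and 6.7, and 1.2 and 6.2, on those arrays, all under the floor. HOXB4 came closest among genes that reached 50, at 1.92-fold higher in cells labelled serum-free (23.9 and 45.9) and 1.2-fold in those labelled serum (54.3 and 65.3). In the limma fit 0 of 15 HOX genes passed for DACH1, with 0% of all genes, and the lowest adjusted p of any HOX gene was 0.931; 1 HOX gene, HOXD9 (log2 0.52, unadjusted p = 0.0468 in the limma fit), and 585 of all genes had an unadjusted p under 0.05. The lowest adjusted p of any gene for DACH1 in that limma fit was 0.234, that of DACH1 itself, so the induced gene was not called either.

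Differences for DACH1 were small and often changed sign with the medium. In cells labelled serum 10 of 13 HOX genes were higher and 3 lower (median log2 0.26, against 0.01 over all genes), and in those labelled serum-free 6 of 14 were higher and 8 lower (median -0.12, against -0.00). Among 11 genes compared in both media, HOXB3, HOXB4, HOXC6 and HOXD9 were higher in both, HOXB5 and HOXD8 lower in both, and 5 changed sign; over all genes 27.5% were higher and 24.6% lower in both. The other probe set of HOXB5 went the other way, from 16.2 to 21.1 with the serum label and from 14.3 to 33.5 with the serum-free label. That of HOXB3 also reversed, from 15.0 to 12.1 and from 19.3 to 19.1. HOXD9 went from 21.2 to 32.1 and from 15.7 to 21.3, below the mark of 50 on every array. It and HOXB9, HOXB7, HOXC4, HOXB5 and HOXD13 were singled out after their values were seen.

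**Figure D3:**
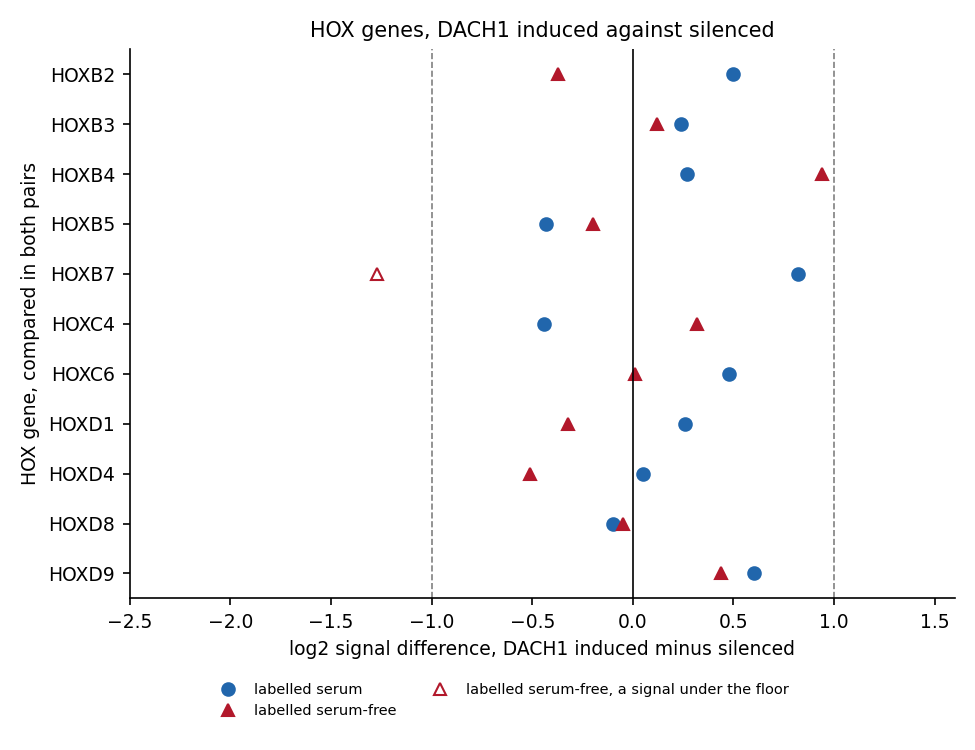
Log2 signal difference between DACH1-induced and DACH1-silenced cells for the 11 HOX genes compared in both media; blue circles are cells labelled serum and red triangles those labelled serum-free, the open symbol is a bound, and dashed lines mark 2-fold. HOXB7 in cells labelled serum-free is the only point beyond 2-fold, and 5 genes have points on both sides of 0.

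Noncoding RNAs of the clusters are transcribed between and across the HOX genes. Of 18 listed, 11 were named on the array and 4 entered the fit, of which 1 rose in cells labelled serum-free and 0 fell, where 15.4% and 12.7% of all genes did. That gene was HAGLR, which starts within the HOXD cluster: it read 21.7 and 42.6 in cells labelled serum and 95.9 and 94.0 in those labelled serum-free (log2 1.64, SE 0.31, limma adjusted p = 0.0339, and 0.0552 without a floor). Its other probe sets went the same way, at 14.2 and 17.8 against 54.6 and 58.1, and at 6.2 and 6.3 against 15.9 and 26.7. HOXD-AS2, whose window is printed above, read 86.3 and 101.8 against 145.3 and 168.3 (log2 0.74, SE 0.18, limma adjusted p = 0.0508), and the media did not overlap. It passed under 5 of 9 alternatives. HOXB-AS1, named after its values were seen, read 29.5 and 16.6 against 47.0 and 39.8 (log2 0.97, SE 0.23, limma adjusted p = 0.0506), but its other probe set read 35.4 and 19.9 against 26.6 and 19.9. HOTTIP, a transcript at the posterior end of the HOXA cluster, read 44.9, 54.7, 46.3 and 47.2 in the order used for HOXB5. Its other probe sets stayed at or below 7.0, under the floor on every array. HOTAIR, the HOXC transcript, stayed at or below 6.5.

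The HOXD cluster thus held transcripts that were higher and transcripts that were lower in cells labelled serum-free. HAGLR minus HOXD8, both as log2 differences between the media, came to 2.50 in silenced and 1.45 in induced cells, and HOXD-AS2 minus HOXD8 to 1.11 and 1.03. These are ratios within arrays and have no test of their own.

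Genes beside the clusters were read for comparison. Of 15 listed, 14 were named and 11 entered the fit: 3 rose in cells labelled serum-free and 0 fell, against 15.4% and 12.7% of all genes, which would be between 1 and 2 of 11 each way. The median log2 difference of the 11 was 0.56. LNPK, which encodes a protein of the endoplasmic reticulum and is separated from HOXD13 by 1 protein-coding gene, read 141.2 and 161.7 against 728.2 and 736.5 (4.85-fold, SE 0.18 on the log2 scale, limma adjusted p = 0.017). Its 3 probe sets all differed by at least 1.88 on the log2 scale in both states. HOXD13 fell while LNPK rose. MTX2, the neighbour of HOXD1 at the other end, read 668.5 and 677.9 against 434.2 and 489.4 (log2 -0.55, limma adjusted p = 0.0943). The heterochromatin protein genes CBX5, near HOXC, and CBX1, near HOXB, rose 2.2-fold (limma adjusted p = 0.0296) and 1.86-fold (limma adjusted p = 0.0388).

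**Figure D4:**
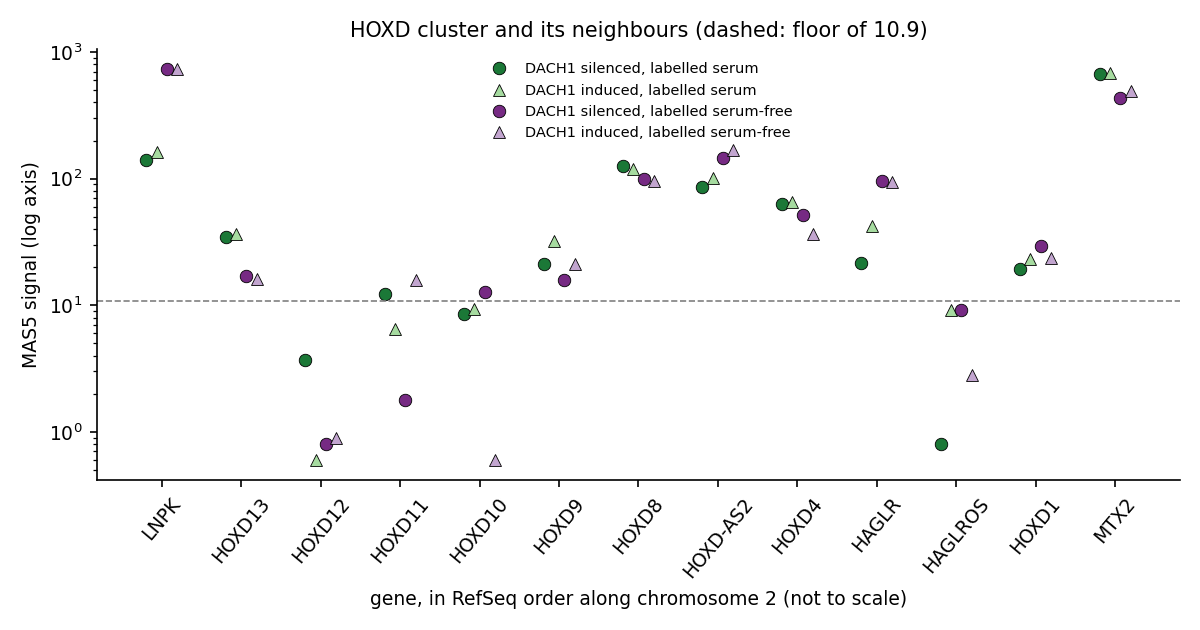
Signals (log axis) on the 4 arrays for the HOXD genes, the noncoding RNAs among them and the flanking genes LNPK and MTX2, ordered by RefSeq start along chromosome 2 and not to scale; green is labelled serum and purple labelled serum-free, circles silenced and triangles induced. LNPK, HOXD-AS2 and HAGLR are higher in both purple arrays, and HOXD13, HOXD8, HOXD4 and MTX2 lower.

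Cofactors of the TALE class bind DNA with HOX proteins. Of 9 listed, 8 were named and tested. In cells labelled serum-free 1 rose and 0 fell, and 0 passed for DACH1. Over all genes tested 15.4% rose, 12.7% fell and 0% passed for DACH1. PBX3 was the one that rose, from 178.0 and 183.7 to 347.2 and 383.2 (2.02-fold, SE 0.18 on the log2 scale, limma adjusted p = 0.0313). MEIS1 read 84.2 in silenced and 26.4 in induced cells labelled serum, 3.19-fold lower with DACH1, and 38.6 and 43.1 in those labelled serum-free; its other probe set read 47.9 and 27.5, then 14.9 and 6.0. MEIS2 read 555.1, 496.5, 521.7 and 444.4, with overlap of the media.

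Regulators of the clusters were read in 3 lists. Polycomb genes had 17 of 21 named and 16 tested: 2 rose in cells labelled serum-free and 3 fell, near the 15.4% and 12.7% of all genes, with a median log2 difference of -0.37. PHF19, a protein that brings PRC2 to chromatin, rose 3.78-fold (54.4 and 73.6 against 266.1 and 215.5, limma adjusted p = 0.0225), and EZH2, the methyltransferase of PRC2, 1.76-fold (limma adjusted p = 0.0427, and 0.0601 without a floor). JARID2, another PRC2 partner, fell 3.59-fold (401.7 and 782.2 against 153.9 and 158.4, limma adjusted p = 0.0275), while EZH1, the second methyltransferase, fell 2.18-fold (limma adjusted p = 0.0287). With the mean of its probe sets EZH1 had a limma adjusted p of 0.0586. PHC3, of the other Polycomb complex, fell 1.99-fold (limma adjusted p = 0.0328).

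Of 17 Trithorax and MLL genes 16 were tested, of which 0 rose and 1 fell, both shares below those over all genes by fewer than 3 genes: AFF4, a scaffold of the super elongation complex, by 1.99-fold (limma adjusted p = 0.0327). KMT2A, the MLL methyltransferase itself, read 190.4 and 152.4 against 125.5 and 105.2 (limma adjusted p = 0.0848).

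Retinoic acid genes had 14 of 16 named and 10 tested, of which 2 rose and 2 fell, again near the shares over all genes. The receptor genes RARB, itself a retinoic acid target, and RXRA rose 3.07-fold (38.5 and 21.0 against 143.0 and 53.3, limma adjusted p = 0.0231) and 2.57-fold (limma adjusted p = 0.0298). ALDH1A3, which makes retinoic acid, fell 6.62-fold (4067.3 and 1764.6 against 429.9 and 381.2, limma adjusted p = 0.0201), and DHRS3, which limits its precursor, fell 3.34-fold (limma adjusted p = 0.0463). In the limma fit 0 members of any of these lists passed for DACH1.

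**Figure D5:**
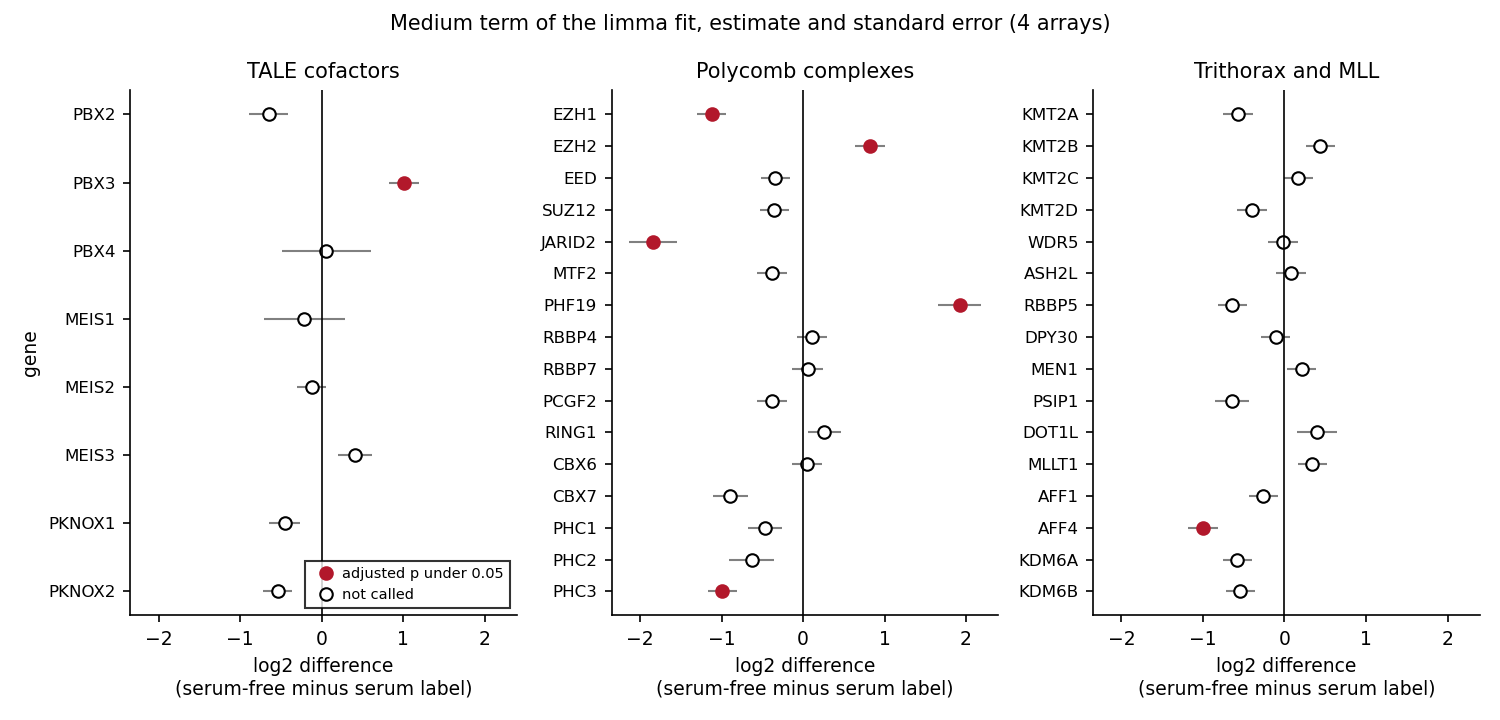
Medium term of the limma fit (log2 difference, labelled serum-free minus labelled serum, with its standard error over 4 arrays) for tested TALE cofactors, Polycomb genes and Trithorax and MLL genes; filled points passed an adjusted p of 0.05. Filled points lie on both sides of 0 among Polycomb genes, at PHF19 and EZH2 on the higher side and JARID2, EZH1 and PHC3 on the lower.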

How the data were processed

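Gene expression was measured once in each of 4 conditions on oligonucleotide arrays (6 µg of total RNA each, per the labels' protocols). The authors deposited linear intensity values, which per the submitters' processing notes are MAS5 signals; the version is not given in the sources used here. All 4 arrays share 1 scale, with 2%-trimmed means of 99.63 to 99.65.

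Probe sets were named from GEO's platform annotation, and 99.9% of symbols were updated by Entrez identifier: of 54613, 41091 had 1 gene, 1801 several and 11721 none listed. Each gene was read by its brightest probe set. Signals were floored at 10.9, and a pair was compared where an array reached 17.2; limma (lmFit and eBayes, DACH1 and medium as terms) used genes with 2 of 4 arrays there, with Benjamini-Hochberg adjustment. The fit was tested on simulated data. Counts at 2-fold have no test.

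Every HOX gene with an array at 50 was named with its signals, and up to 3 others as examples; HOX genes beyond that, and EZH2, KMT2A, MEIS1, MEIS2, HOTAIR, HOXB-AS1, MTX2, TAGLN, ACTA2 and SHOX2, were chosen after their values were seen. The HOX genes and the 11 lists (149 genes, 19 not analysed here) were chosen with earlier results of these data known. Alternatives were quantile normalization, other floors, filters and probe set rules, a variance trend and each array left out. Start regions come from a RefSeq table (GRCh38.p14); protein sequences were not used here. The software was limma 3.58.1 in R 4.3.3, and pandas 2.3.3, matplotlib 3.10.9 and numpy 2.4.6 in Python 3.11.15.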

Additional observations from a re-analysis of the deposited data

Results flagged for a closer look

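In 3 HOX genes that reached 50, the arrays moved one way under a contrast in one setting and the opposite way in the other. With 1 array per condition the difference between the settings was not tested.

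HOXB2 was higher with DACH1 induced in cells labelled serum (log2 0.50) and lower in those labelled serum-free (log2 -0.37); the same 4 signals give medium differences of 0.02 in silenced and -0.85 in induced cells. HOXD4 differed by 0.05 with DACH1 in cells labelled serum and by -0.51 in those labelled serum-free. HOXC6 differed between the media by 0.38 in silenced and by -0.09 in induced cells.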

How the results depend on the processing

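No medium estimate of a called HOX gene changed sign under the alternatives in which the gene stayed in the limma fit. HOXB9 left the fit without _x_at and _s_at probe sets. The probe set that remained for it went the other way (log2 -0.16 in silenced and -0.43 in induced cells). The uncalled DACH1 difference of HOXB3 in cells labelled serum went from 0.24 to -0.04 with the mean of its probe sets. Of the HOX counts, 65 of 82 stayed within 1.5 times their value, and the 17 that did not are counts of 4 or fewer. No paired analysis was possible because each condition has 1 array and the labels carry no replicate numbers. The 4 HOX genes called for medium by limma became 0 without the filter, 1 with a floor of 50 and an array at 100, and 2 each without a floor (HOXC5, HOXD13), with every array at the median (HOXB3, HOXB4), or with the mean of all probe sets (HOXC5, HOXD13). Genes at least 2-fold lower in cells labelled serum-free, 3 in each DACH1 state, became 1 in silenced cells with a pseudocount; with every array at the median 1 in silenced and 0 in induced cells; and 0 in both with the floor of 50. Without a floor 1 was higher in silenced cells. The 1 gene lower with DACH1 in cells labelled serum-free became 2 without a floor and 0 with every array at the median, the floor of 50, the mean of probe sets, or without _x_at and _s_at probe sets; quantile normalization made 1 higher (HOXB4, log2 1.06). HOX medians ranged over the settings from -0.43 to 0.00 and from -0.62 to 0.00 for medium (silenced, induced), and from 0.00 to 0.36 and from -0.12 to 0.01 for DACH1 (labelled serum, serum-free). Leaving out 1 array leaves a value with no test: 45 of 56 such values were the same, and for HOXB2 the medium difference ran from -0.85 to 0.02 and the DACH1 difference from -0.37 to 0.50. The causes of these shifts were not tested. Signals near the floor limit most HOX genes.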

Other observations

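Homeobox genes outside the HOX clusters were read on the same arrays. ParaHox and caudal genes, the evolutionary sisters of the HOX clusters, had 0 of 7 members at 50, with a highest signal of 29.7 (GSX2). Of 10 forebrain homeobox genes named, 3 entered the limma fit. In cells labelled serum-free 2 of them rose and 0 fell, where 15.4% and 12.7% of all genes tested did. DLX5 read 8.5 and 11.5 in cells labelled serum, silenced and induced, against 121.6 and 85.8 in those labelled serum-free (log2 3.19, SE 0.23, limma adjusted p = 0.0167), and passed the filter on low signals only through the latter. DLX2 read 74.4 and 58.1 against 133.7 and 131.4 (log2 1.01, limma adjusted p = 0.0355), and DLX1, which lies beside it, 198.1 and 190.3 against 85.1 and 126.8 (log2 -0.90, limma adjusted p = 0.0609). OTX2, EMX1, EMX2 and SIX3 read 11.2 or less on every array. SHOX2, a limb and heart homeobox gene singled out after its values were seen, read 676.4 and 442.6 against 237.3 and 225.0 and fell 2.37-fold (limma adjusted p = 0.0319).

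Probe sets assigned to several genes were left out of all counts above. Of those that name HOX genes or their antisense transcripts, 3 are shared by LOC401021, HOXD4 and HOXD3, with highest signals of 11.0, 2.4 and 9.6, and 1 by HOXA10-AS and MIR196B, with 6.9.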
